A study of Mus musculus with 6 samples.

Results

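The collagen genes were followed across sorted cells of the embryonic mouse pancreas. All 44 gene symbols of the form Col, number, a, number were taken from the 24062 symbols of the count tables, so that membership rested on the name and not on any measured value. They comprised 11 fibrillar collagens, 9 collagens of the basement membrane zone, 9 fibril-associated collagens, 6 beaded-filament chains of type VI, 3 short-chain collagens, 4 transmembrane collagens and 2 others. RNA was sequenced from pooled, flow-sorted Tomato and GFP cells of dorsal pancreatic buds carrying the mTmG reporter, which turns from red to green fluorescence once Cre has acted. The 6 libraries were mesenchyme at E12.5 from mutant and from control embryos, epithelium at E12.5 from mutant and from control embryos, and epithelium at E14.5 from mutant and from control embryos. The mutant genotype label includes, among other elements, mTmG+/-, Nkx2.5-Cre+/- and Pbx2+/-, and the control genotype label is mTmG alone. Nkx2.5-Cre acts in cells that have expressed the heart and splanchnic mesoderm gene Nkx2-5, so in the bud it targets mesenchyme and not epithelium. The reporter is common to all groups, each library is a pool of sorted fractions, and the labels do not say how green cells were obtained from embryos without Cre.

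Collagens are secreted or membrane proteins whose alpha chains wind around each other into a helical rod built on repeats with glycine in every turn. Fibrillar types I, III and V form the banded fibrils of connective tissue, and types II and XI form those of cartilage. Type IV forms the sheet of the basement membrane on which epithelium rests, types XV and XVIII sit in the zone beneath it, and fibril-associated types IX, XII, XIV and XVI lie on the surface of other fibrils. In the developing pancreas the mesenchyme and the endothelium are known sources of matrix for the epithelial bud.

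With 1 pooled library per group no difference has a replicate check, and no p-value is given. Levels are CPM, counts scaled to a common library size, after TMM scaling, which corrects library sizes for differences in composition. A ratio of 2 libraries is given with a 95% interval for counting error only, and a collagen was called higher or lower when the ratio was 2-fold or more, its interval left out 1, and one library or both had at least 5 CPM. Genes that meet this last condition are termed measured. Differences between libraries were wider than counting: over all genes at 20 to 100 CPM the log2 ratio of mutant to control mesenchyme had an SD of 0.39. This SD was 0.39 and 0.66 between genotypes in E12.5 and E14.5 epithelium. Between mesenchyme and epithelium it was 1.13 in mutants and 1.26 in controls, and between the stages 0.60 and 0.77. The libraries held 14032569 to 20276045 counts on genes, and 3 counts, the level that a gene with no read could still have had, corresponded to 0.141 to 0.215 CPM.

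Pbx2, which has 1 mutant copy in the label, stood at 56.0 CPM in mutant and 89.9 CPM in control mesenchyme, at 49.7 and 54.5 CPM in the labelled mutant and control E12.5 epithelium, and at 47.3 and 34.0 CPM in the labelled mutant and control E14.5 epithelium. At E14.5 the labelled mutant thus stood above the control, and the labels do not say whether a mutant copy lowers Pbx2 RNA. Nkx2-5 had 66.8 and 41.2 CPM in mutant and control mesenchyme. It had 3.68 and 0.612 CPM in the labelled mutant and control E12.5 epithelium, and 0.862 and 0 CPM in those at E14.5. The genotype of the libraries was not tested. Both mutant epithelial libraries are therefore called labelled mutant, and every direction drawn from them rests on the label. The epithelial adhesion gene Epcam stood at 462 and 508 CPM in the labelled mutant and control E12.5 epithelium and at 467 and 938 CPM in those at E14.5, against 3.79 and 4.43 CPM in mutant and control mesenchyme. The epithelial libraries also held mesenchymal RNA: 28 general mesenchymal genes, none of them a collagen, summed to 6695 and 6513 CPM in mutant and control mesenchyme, 3471 and 2672 CPM in the labelled mutant and control E12.5 epithelium, and 4970 and 1830 CPM in the labelled mutant and control E14.5 epithelium. Which cells of a sorted epithelial pool hold its collagen RNA is not given by these counts, and fewer cells of a type and less RNA per cell cannot be told apart in such pools.

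Of the 44 collagens, 35 reached 5 CPM in at least 1 library and 24 did so in all 6. Another 5 (Col4a3, Col5a3, Col6a4, Col19a1 and Col20a1) peaked between 1 and 5 CPM, and 4 (Col4a4, Col6a5, Col10a1 and Col28a1) stayed below 1 CPM in every library. Collagens took 0.842% of counts in mutant mesenchyme (exact binomial interval 0.837% to 0.846%) and 1.03% (1.02% to 1.03%) in control mesenchyme. In epithelium they took 0.582% (0.578% to 0.586%) in the labelled mutant and 0.589% (0.586% to 0.592%) in the control at E12.5, and 1.05% (1.05% to 1.06%) in the labelled mutant and 0.548% (0.544% to 0.551%) in the control at E14.5. The E14.5 labelled mutant was thus the epithelial library whose collagen share came up to that of mesenchyme. Set against the summed level of the general mesenchymal genes, the summed collagen level was 1.26 times as high in mutant and 1.57 times in control mesenchyme, 1.64 and 2.10 times in the labelled mutant and control E12.5 epithelium, and 2.13 and 3.18 times in the labelled mutant and control E14.5 epithelium.

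**Figure D1:**
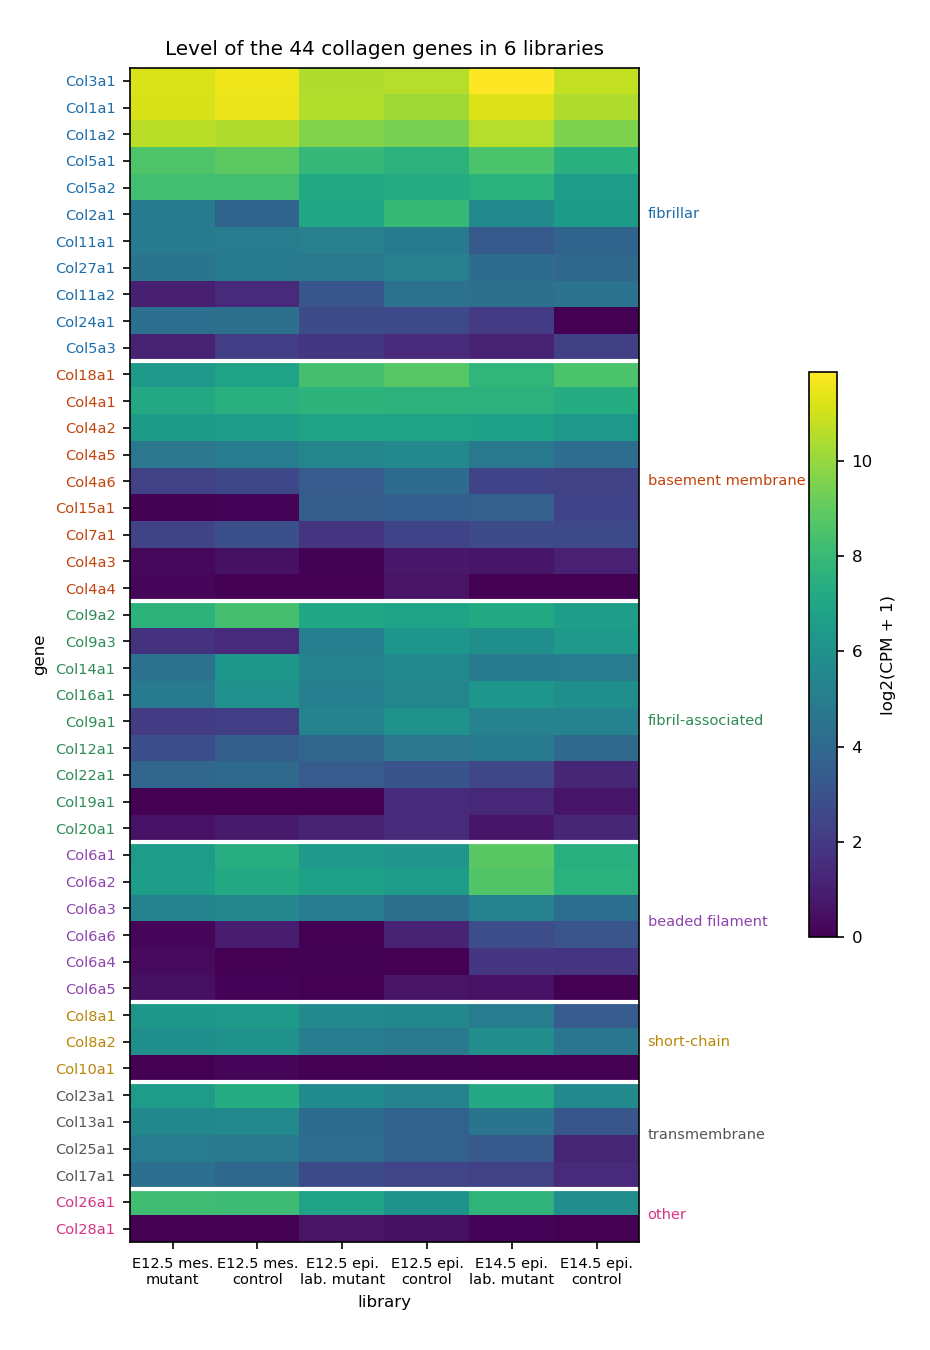
Level of each of the 44 collagen genes (rows, grouped and coloured by type) in the 6 libraries (columns; mes. mesenchyme, epi. epithelium, lab. mutant for the libraries labelled mutant), as log2(CPM + 1) on the colour scale. Col1a1, Col1a2 and Col3a1 are brightest in every library, and Col15a1, Col9a1, Col9a3 and Col11a2 are darker in both mesenchyme libraries than in the epithelial ones.

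Fibrillar collagens made up most of the collagen RNA. Corrected for exon length (CPM per kb), they held 77.5% of the collagen level in mutant and 75.7% in control mesenchyme, 70.5% and 69.3% in the labelled mutant and control E12.5 epithelium, and 74.3% and 71.6% in the labelled mutant and control E14.5 epithelium. Col3a1, Col1a1 and Col1a2 were the highest members per kb in all 6 libraries summed, with Col3a1 at 415 and 547 CPM per kb in mutant and control mesenchyme. The deposited counts are described as deduplicated, which lowers the most abundant genes, so these levels may be underestimates.

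Col1a1, the chain that makes up most of type I fibrils, stood at 2290.5 and 2929.8 CPM in mutant and control mesenchyme, 1436 and 1142 CPM in the labelled mutant and control E12.5 epithelium, and 2383 and 1398 CPM in those at E14.5. Its partner chain Col1a2 had 1574 and 1393 CPM in mutant and control mesenchyme, 772 and 685 CPM in the labelled mutant and control E12.5 epithelium, and 1509 and 748 CPM in those at E14.5. Col3a1, the chain of type III fibrils of soft tissue, had 2309.9 and 3041 CPM in mutant and control mesenchyme, 1385 and 1506 CPM in the labelled mutant and control E12.5 epithelium, and 3717 and 1757 CPM in those at E14.5. All these levels were lowest in the E12.5 epithelia or the E14.5 control epithelium, and the E14.5 labelled mutant lay close to or above the mesenchyme. Type V, which sets the width of type I fibrils, followed with Col5a1 at 384 and 473 CPM in mutant and control mesenchyme, 237 and 197 CPM in the labelled mutant and control E12.5 epithelium, and 365 and 184 CPM in those at E14.5. Col5a2 had 307 and 319.9 CPM in mutant and control mesenchyme, 149.9 and 159 CPM in the labelled mutant and control E12.5 epithelium, and 189.6 and 89.6 CPM in those at E14.5, so that both type V chains were higher in the mesenchyme than in the epithelium of the same stage and genotype.

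The cartilage-type fibrillar chains ran the other way. Col2a1, the chain of type II collagen, stood at 29.7 and 13.01 CPM in mutant and control mesenchyme, 139 and 245 CPM in the labelled mutant and control E12.5 epithelium, and 48.8 and 86.7 CPM in those at E14.5. Col11a2, a type XI chain, had 1.03 and 1.74 CPM in mutant and control mesenchyme, 8.15 and 21.5 CPM in the labelled mutant and control E12.5 epithelium, and 20.1 and 21.6 CPM in those at E14.5. Both were lowest in the mesenchyme libraries, whereas the other type XI chain, Col11a1, had 27.7 and 30.5 CPM in mutant and control mesenchyme, 34.8 and 29.5 CPM in the labelled mutant and control E12.5 epithelium, and 9.41 and 12.9 CPM in those at E14.5, with its lowest levels at E14.5. Of the less abundant fibrillar chains, Col24a1 had 19.4 and 19.7 CPM in mutant and control mesenchyme, 5.58 and 5.23 CPM in the labelled mutant and control E12.5 epithelium, and 3.16 and 0 CPM in those at E14.5. Its highest values were in mesenchyme, and no read was found in the E14.5 control. Col27a1, which is known from cartilage, had 22.3 and 28.4 CPM in mutant and control mesenchyme, 25.9 and 34.8 CPM in the labelled mutant and control E12.5 epithelium, and 17.5 and 15.3 CPM in those at E14.5. Its highest library was the E12.5 control epithelium and its lowest the E14.5 control.

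Among the fibril-associated collagens, Col14a1 (mm10 chromosome 15, 55307750 to 55520803), which binds type I fibrils and limits their growth, had 20.8 and 76.9 CPM in mutant and control mesenchyme, 36.1 and 49.8 CPM in the labelled mutant and control E12.5 epithelium, and 27.5 and 30.8 CPM in those at E14.5. Control mesenchyme stood highest and mutant mesenchyme lowest. Col16a1 (chromosome 4, 130047840 to 130099283), which links fibrils to cells, had 28.7 and 63.7 CPM in mutant and control mesenchyme, 34.1 and 42.8 CPM in the labelled mutant and control E12.5 epithelium, and 74.1 and 58.6 CPM in those at E14.5. Again mutant mesenchyme was the lowest library, while the highest was the E14.5 labelled mutant. Col12a1, a long fibril-surface collagen of tendon and other load-bearing tissue, had 6.30 and 11 CPM in mutant and control mesenchyme, 13.9 and 24.9 CPM in the labelled mutant and control E12.5 epithelium, and 28.8 and 16.4 CPM in those at E14.5, and Col22a1, known from muscle-tendon junctions, had 13.9 and 16.2 CPM in mutant and control mesenchyme, 9.66 and 7.49 CPM in the labelled mutant and control E12.5 epithelium, and 4.67 and 1.44 CPM in those at E14.5. Col12a1 was lowest and Col22a1 highest in the mesenchyme libraries.

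The type IX chains, which coat cartilage fibrils as a trimer of the products of Col9a1, Col9a2 and Col9a3, did not share a pattern. Col9a2 (chromosome 4, 121039385 to 121055322) had 204 and 328 CPM in mutant and control mesenchyme, 135 and 117 CPM in the labelled mutant and control E12.5 epithelium, and 144 and 98.1 CPM in those at E14.5. Col9a1 had 3.34 and 3.55 CPM in mutant and control mesenchyme, 38.9 and 68.2 CPM in the labelled mutant and control E12.5 epithelium, and 37.2 and 37.7 CPM in those at E14.5. Col9a3 had 2.38 and 1.68 CPM in mutant and control mesenchyme, 34.1 and 75.03 CPM in the labelled mutant and control E12.5 epithelium, and 59.5 and 85.3 CPM in those at E14.5. Col9a2 was thus highest in the 2 mesenchyme libraries, where its partner chains were lowest. Col9a3 shares 234 exon bases with Tcfl5 on the opposite strand in the annotation, and whether counting used strand is not given in the sources used here.

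Of the basement membrane collagens, the main type IV chain Col4a1 had 139.9 and 181 CPM in mutant and control mesenchyme, 199 and 198 CPM in the labelled mutant and control E12.5 epithelium, and 194 and 160.4 CPM in those at E14.5. Col4a2, its partner in the trimer and named here after its values were seen, had 88.1 and 95.4 CPM in mutant and control mesenchyme, 113 and 112 CPM in the labelled mutant and control E12.5 epithelium, and 108 and 78.5 CPM in those at E14.5. Their lowest libraries were mutant mesenchyme for Col4a1 and the E14.5 control epithelium for Col4a2, and on TMM-scaled CPM neither gene was called in any of the 7 comparisons. Col4a5, a chain of another type IV network, had 25.3 and 31.9 CPM in mutant and control mesenchyme, 41.2 and 47.3 CPM in the labelled mutant and control E12.5 epithelium, and 26.8 and 17.7 CPM in those at E14.5, and Col4a6 had 4.05 and 4.90 CPM in mutant and control mesenchyme, 9.46 and 16.7 CPM in the labelled mutant and control E12.5 epithelium, and 4.24 and 4.11 CPM in those at E14.5, with both highest in the E12.5 epithelia.

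Col4a1 and Col4a2 start on opposite strands of chromosome 8, 21 bases apart, so their promoter windows overlap by 78 bases. On TMM-scaled CPM no comparison called this pair. Its windows are printed beside those of Col1a2 and Col3a1, fibrillar genes both called higher on that scale in the E14.5 genotype pair and the control fraction pair. The contrast depends on the scale. Relative to the median of the general mesenchymal genes, Col4a1 was called lower in the E14.5 genotype pair and both fraction pairs. Col4a2 was called lower in both fraction pairs. That scale called 75.4%, 28.2% and 65.6% of all genes lower in the E14.5 genotype, mutant fraction and control fraction pairs. On it Col1a2 and Col3a1 lost the calls named. Each is the RefSeq window from 250 bases before to 50 bases after the start, build GRCm38.p6, on the gene's strand. Capitals mark, on either strand, the box CCAAT, the composite motif of Pbx and Hox proteins TGATTNAT, and the motif TATAA, whose overlapping matches are joined.
Col4a1 (chr8:11312777-11313076, minus strand): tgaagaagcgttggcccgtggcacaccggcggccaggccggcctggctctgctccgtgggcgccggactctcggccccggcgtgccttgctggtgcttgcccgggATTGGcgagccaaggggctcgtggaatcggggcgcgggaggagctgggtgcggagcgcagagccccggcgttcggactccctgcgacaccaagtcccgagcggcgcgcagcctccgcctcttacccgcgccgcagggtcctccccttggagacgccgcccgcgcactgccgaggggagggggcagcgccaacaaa
Col4a2 (chr8:11312555-11312854, plus strand): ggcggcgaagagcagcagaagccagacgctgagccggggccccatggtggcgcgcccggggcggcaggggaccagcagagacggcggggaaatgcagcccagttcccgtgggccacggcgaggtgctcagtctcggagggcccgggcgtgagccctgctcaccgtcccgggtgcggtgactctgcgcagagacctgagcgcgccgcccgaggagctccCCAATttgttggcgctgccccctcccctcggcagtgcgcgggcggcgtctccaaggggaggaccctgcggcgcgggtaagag
Col1a2 (chr6:4505368-4505667, plus strand): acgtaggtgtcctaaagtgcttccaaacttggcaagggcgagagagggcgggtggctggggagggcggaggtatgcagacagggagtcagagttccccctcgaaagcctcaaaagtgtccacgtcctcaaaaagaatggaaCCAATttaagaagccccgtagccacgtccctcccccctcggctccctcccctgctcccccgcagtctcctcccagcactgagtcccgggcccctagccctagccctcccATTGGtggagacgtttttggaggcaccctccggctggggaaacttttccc
Col3a1 (chr1:45311288-45311587, plus strand): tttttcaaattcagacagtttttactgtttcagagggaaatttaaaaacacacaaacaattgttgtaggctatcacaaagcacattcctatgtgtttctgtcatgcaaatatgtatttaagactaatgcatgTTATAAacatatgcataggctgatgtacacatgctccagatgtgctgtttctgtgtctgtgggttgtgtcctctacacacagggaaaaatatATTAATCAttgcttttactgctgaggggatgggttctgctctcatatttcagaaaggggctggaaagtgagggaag
The Col4a1 and Col4a2 windows were 74.0% and 73.7% G and C and held 1 CCAAT each. The Col1a2 window was 61.0% G and C and held CCAAT on both strands, whereas the Col3a1 window was 37.7% G and C and held TATAA and TGATTNAT but no CCAAT. Windows were found for 35 of the 44 collagens, 38 windows in all. CCAAT was in 34.2% of the collagen windows and 37.4% of the 32851 windows of all genes, TATAA in 18.4% and 24.9%, TGATTNAT in 2.63% and 3.22%, and the Meis-type motif TGACAG in 18.4% and 19.2%. GGGCGG, the Sp1-type box, was in 60.5% of collagen windows and 35.7% of all windows. A match describes letters in a window and is not a binding site. No window was found for Col1a1, Col2a1, Col4a3, Col5a2, Col9a3, Col12a1, Col14a1, Col22a1 and Col26a1.

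The remaining basement membrane members separated the fractions more. Col18a1, whose C-terminal fragment is endostatin, had 81.6 and 113 CPM in mutant and control mesenchyme, 329 and 433 CPM in the labelled mutant and control E12.5 epithelium, and 219 and 359 CPM in those at E14.5. Col15a1, its relative, had 0.0643 and 0.0671 CPM in mutant and control mesenchyme, 10.2 and 10.5 CPM in the labelled mutant and control E12.5 epithelium, and 11.6 and 4.18 CPM in those at E14.5. In each mesenchyme library the Col15a1 value was 1 read. Col7a1, the anchoring fibril of stratified epithelia, had 4.37 and 6.51 CPM in mutant and control mesenchyme, 2.43 and 4.24 CPM in the labelled mutant and control E12.5 epithelium, and 5.67 and 5.21 CPM in those at E14.5, close to the 5 CPM limit in all libraries.

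Type VI chains form a beaded microfibril network around cells. Col6a1 had 90.3 and 165 CPM in mutant and control mesenchyme, 81.5 and 70.9 CPM in the labelled mutant and control E12.5 epithelium, and 459.6 and 173 CPM in those at E14.5. Col6a2 had 100.3 and 145 CPM in mutant and control mesenchyme, 105 and 90.01 CPM in the labelled mutant and control E12.5 epithelium, and 400.2 and 190.1 CPM in those at E14.5. Col6a3 had 38.3 and 44.3 CPM in mutant and control mesenchyme, 31.1 and 20.1 CPM in the labelled mutant and control E12.5 epithelium, and 37.7 and 18.8 CPM in those at E14.5. The first and second stood highest in the E14.5 labelled mutant, while Col6a3 did not exceed its control mesenchyme level there. Col6a6, a further alpha chain, had 0.129 and 0.872 CPM in mutant and control mesenchyme, 0 and 1.18 CPM in the labelled mutant and control E12.5 epithelium, and 5.89 and 7.603 CPM in those at E14.5, above 5 CPM at E14.5 alone.

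The short-chain collagens of type VIII, known from endothelium and cornea, were Col8a1 with 77.2 and 83.2 CPM in mutant and control mesenchyme, 46.6 and 44.9 CPM in the labelled mutant and control E12.5 epithelium, and 31.9 and 9.66 CPM in those at E14.5, and Col8a2 with 59.6 and 66.4 CPM in mutant and control mesenchyme, 30.6 and 26.2 CPM in the labelled mutant and control E12.5 epithelium, and 57.6 and 23.97 CPM in those at E14.5. Of the transmembrane collagens, Col13a1, Col17a1 and Col25a1 were higher in both mesenchyme libraries than in any epithelial one. Col23a1 was highest in control mesenchyme, but mutant mesenchyme lay below the E14.5 labelled mutant. Col23a1 had 91.8 and 159 CPM in mutant and control mesenchyme, 52.5 and 39.1 CPM in the labelled mutant and control E12.5 epithelium, and 141 and 50.8 CPM in those at E14.5. Col13a1 had 46.05 and 49.2 CPM in mutant and control mesenchyme, 16.8 and 12.01 CPM in the labelled mutant and control E12.5 epithelium, and 22.9 and 8.08 CPM in those at E14.5. Both were lower in each epithelial control than in control mesenchyme. Col25a1, which is needed for motor nerve entry into muscle in the mouse, had 30.8 and 26.7 CPM in mutant and control mesenchyme, 17.8 and 11.9 CPM in the labelled mutant and control E12.5 epithelium, and 8.83 and 1.37 CPM in those at E14.5. Col17a1, a hemidesmosome protein of skin, had 18.97 and 14.96 CPM in mutant and control mesenchyme, 5.26 and 4.57 CPM in the labelled mutant and control E12.5 epithelium, and 4.02 and 1.64 CPM in those at E14.5. Col26a1 (chromosome 5, 136741759 to 136883209), a secreted collagen-like protein first cloned from testis and ovary, had 296 and 275 CPM in mutant and control mesenchyme, 115 and 65.1 CPM in the labelled mutant and control E12.5 epithelium, and 210.3 and 54.6 CPM in those at E14.5.

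**Figure D2:**
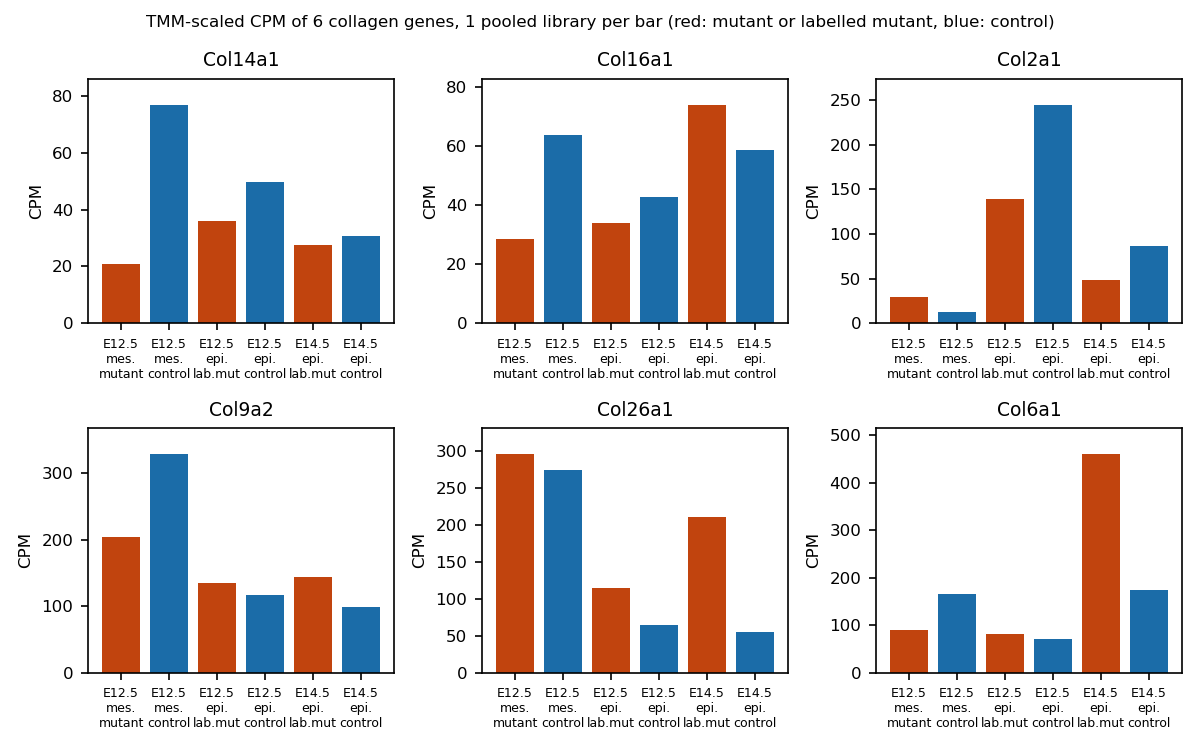
Level in TMM-scaled CPM (y axis, from 0) of 6 collagens in each library (x axis; red bars mutant or labelled mutant, blue bars control; 1 pooled library per bar, so no error bar). Col14a1 and Col16a1 are lower in mutant than in control mesenchyme, Col2a1 is highest in E12.5 epithelium, Col9a2 and Col26a1 are high in mesenchyme, and Col6a1 is highest in the E14.5 labelled mutant.

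The comparison of mutant with control mesenchyme at E12.5 asked how the collagens differed where Nkx2.5-Cre acts. Of 29 measured collagens, 1 was called higher and 2 lower, 3.45% and 6.90%, against 1.96% and 3.5% of all 11188 measured genes. Both called lower were fibril-associated: Col14a1, 3.70-fold lower (3.27 to 4.20), and Col16a1, 2.22-fold lower (1.98 to 2.49). The cartilage-type chain Col2a1 was 2.28-fold higher (1.93 to 2.71). The median log2 ratio over the 29 was -0.30, and over all measured genes -0.01. By type the medians were -0.80 over 5 fibril-associated, -0.54 over 3 beaded-filament, -0.37 over 5 basement membrane and -0.14 over 9 fibrillar collagens. They were -0.13 over 2 short-chain and 0.06 over 4 transmembrane collagens, and Col26a1 stood at 0.11. Members that were not called included 4 of the larger ratios: Col6a1 was 1.83-fold lower (1.71 to 1.95), Col12a1 1.75-fold lower (1.35 to 2.27), Col23a1 1.74-fold lower (1.63 to 1.86) and Col9a2 1.61-fold lower (1.54 to 1.69). Relative to the general mesenchymal genes, whose median was -0.17, the collagen median was -0.13, Col14a1 and Col2a1 passed the rule, and Col16a1 did not. That scale called 2.82% of all genes higher and 2.55% lower.

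Other cell types differed between these pools as well, and their part in the collagen values was not tested. Leukocyte markers summed to 50.3 CPM in mutant and 105 CPM in control mesenchyme, with 6 of 7 measured lower, mesothelial markers to 139 and 225 CPM (3 of 7 lower), smooth muscle and pericyte markers to 551 and 838 CPM (4 of 11 lower) and erythroid markers to 2.12 and 56.9 CPM (2 of 2 lower). Endothelial markers summed to 149 CPM in mutant and 132 CPM in control mesenchyme, with 2 of 5 measured higher. The general mesenchymal sums were 6695 CPM in mutant and 6513 CPM in control mesenchyme. Cartilage markers other than collagens summed to 168 CPM in mutant and 131 CPM in control mesenchyme, with 1 of 3 measured higher: Sox9, a transcription factor of cartilage and of pancreatic progenitors, at 66.6 CPM in mutant and 16.1 CPM in control mesenchyme, 4.14-fold higher (3.59 to 4.78). Of the defining cartilage markers, Acan stood at 0.0643 CPM in mutant mesenchyme and 0 in the control, Comp at 0.707 CPM and 0, and Matn1 at 0 in both. Among genes of collagen assembly no call was made: 0 of 19 measured folding and modification genes (median -0.09), 0 of 8 processing and cross-linking genes (median -0.31) and 0 of 5 receptors (median -0.04).

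In E12.5 epithelium, of 33 measured collagens 0 were called higher and 2 lower in the labelled mutant, 0% and 6.06%, against 1.79% and 3.21% of all 11991 measured genes. Both were cartilage-type chains, Col11a2, 2.64-fold lower (2.16 to 3.24), and Col9a3, 2.2-fold lower (1.99 to 2.43). Other cartilage-type chains were nearer to the control, Col2a1 at 1.76-fold lower (1.67 to 1.85) and Col9a1 at 1.75-fold lower (1.59 to 1.93), and Col11a1, at 1.18-fold higher (1.05 to 1.33), and Col9a2, at 1.16-fold higher (1.09 to 1.23), lay on the other side of it. The median over all 33 was 0.05, and over all measured genes 0.00. Cartilage markers other than collagens summed to 656 CPM in the labelled mutant and 875 CPM in the control, of which 1 of 6 measured was lower, with Acan at 9.99 and 45.2 CPM and Matn1 at 0 in both. Most of these sums was Sox9, also a factor of pancreatic progenitors, at 493 CPM in the labelled mutant and 656 CPM in the control. Smooth muscle and pericyte markers summed to 628 CPM in the labelled mutant and 461 CPM in the control (4 of 13 higher), mesothelial markers to 369 and 250.5 CPM (2 of 8 higher), and leukocyte markers to 392 and 596 CPM (1 of 15 lower). The part of these markers in the collagen values was not tested. Col26a1 came nearest to a call in the other direction, 1.76-fold higher (1.64 to 1.89). Relative to the general mesenchymal genes, whose median was 0.30, 6 collagens were called lower: Col2a1, Col4a6, Col9a1, Col9a3, Col11a2 and Col12a1. On that scale 7.29% of all measured genes were lower and 0.992% higher. Of 9 measured processing genes 1 was called, Adamts3, a procollagen protease, 3.12-fold lower (2.23 to 4.45). None of 20 folding genes and 6 receptors was called. The control library of this pair comes from a table named in another form, with another date, than the 5 remaining tables. A difference between runs cannot be told apart from the group in any comparison that uses it.

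At E14.5 many collagens were higher in the epithelium labelled mutant, but not relative to the general mesenchymal genes. Of 31 measured collagens 13 were called higher and 0 lower, 41.9% and 0%, against 9.64% and 6.4% of all 12145 measured genes, and the median log2 ratio was 0.77 against -0.03 over all. Relative to the median of the general mesenchymal genes (1.37), the collagen median was -0.60, with 1 called higher and 12 lower, where that scale called 1.21% of all genes higher and 75.4% lower. The 13 were Col1a2, Col3a1 and Col5a2 among fibrillar, Col6a1, Col6a2 and Col6a3 among beaded-filament, Col8a1 and Col8a2, the transmembrane Col13a1, Col23a1 and Col25a1, Col26a1, and Col15a1. With DESeq2 size factors Col1a2 and Col6a3 were just under 2-fold (log2 ratios 0.98 and 0.97). On the relative scale Col1a2, Col3a1, Col5a2, Col6a2, Col6a3 and Col8a2 fell below 0, from -0.36 for Col6a3 to -0.10 for Col8a2.

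The largest ratios at E14.5 were 6.45-fold higher (3.999 to 10.9) for Col25a1, 3.85-fold higher (3.56 to 4.17) for Col26a1 and 3.30-fold higher (2.73 to 4.02) for Col8a1. Col25a1 was 2.502-fold higher relative to the general mesenchymal genes, and Col26a1 1.49-fold. Col24a1 had 3.16 CPM in the labelled mutant and no read in the control, below the 5 CPM limit. Col18a1 was 1.63-fold lower (1.56 to 1.71) and Col2a1 1.78-fold lower (1.62 to 1.95), both short of the threshold. On the relative scale these were 4.21-fold and 4.58-fold lower, the largest among the 12. Of the fibril-associated collagens 0 of 6 were called, with a median of 0.16, and Col14a1 was 1.121-fold lower (0.976 to 1.29).

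Markers moved with these values and their part was not tested. General mesenchymal markers summed to 4970 CPM in the labelled mutant and 1830 CPM in the control, with 18 of 27 measured higher. Smooth muscle and pericyte markers stood at 1035 and 270 CPM (9 of 13 higher), neural crest and glial markers at 459 and 143 CPM (9 of 11 higher) and skeletal muscle markers at 42.5 and 10.1 CPM (4 of 4 higher). General epithelial markers summed to 4517 CPM in the labelled mutant and 8165 CPM in the control (10 of 23 lower). Cartilage markers summed to 360.2 CPM in the labelled mutant and 724 CPM in the control (3 of 6 lower and 1 higher). Most of these sums was Sox9, also a factor of pancreatic progenitors, at 257 and 540 CPM. Endothelial markers summed to 472 and 452 CPM (5 of 18 higher and 1 lower). Of the genes of collagen assembly, 5 of 7 measured processing and cross-linking genes were called higher (median 1.46). So were 3 of 20 folding genes (0.36) and 3 of 6 receptors (0.90). Of all measured genes 9.64% were higher, and the median of the general mesenchymal genes was 1.37. The folding genes summed to 4181 CPM in the labelled mutant and 4325 CPM in the control. Adamts2, which removes the N-terminal propeptide of procollagen, was 4.19-fold higher (3.64 to 4.84), the lysyl oxidases Loxl1 and Loxl3 3.36-fold higher (2.94 to 3.84) and 3.15-fold higher (2.65 to 3.77), the integrin chain Itga1 3.16-fold higher (2.42 to 4.16) and the collagen receptor kinase Ddr2 2.86-fold higher (2.54 to 3.21).

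**Figure D3:**
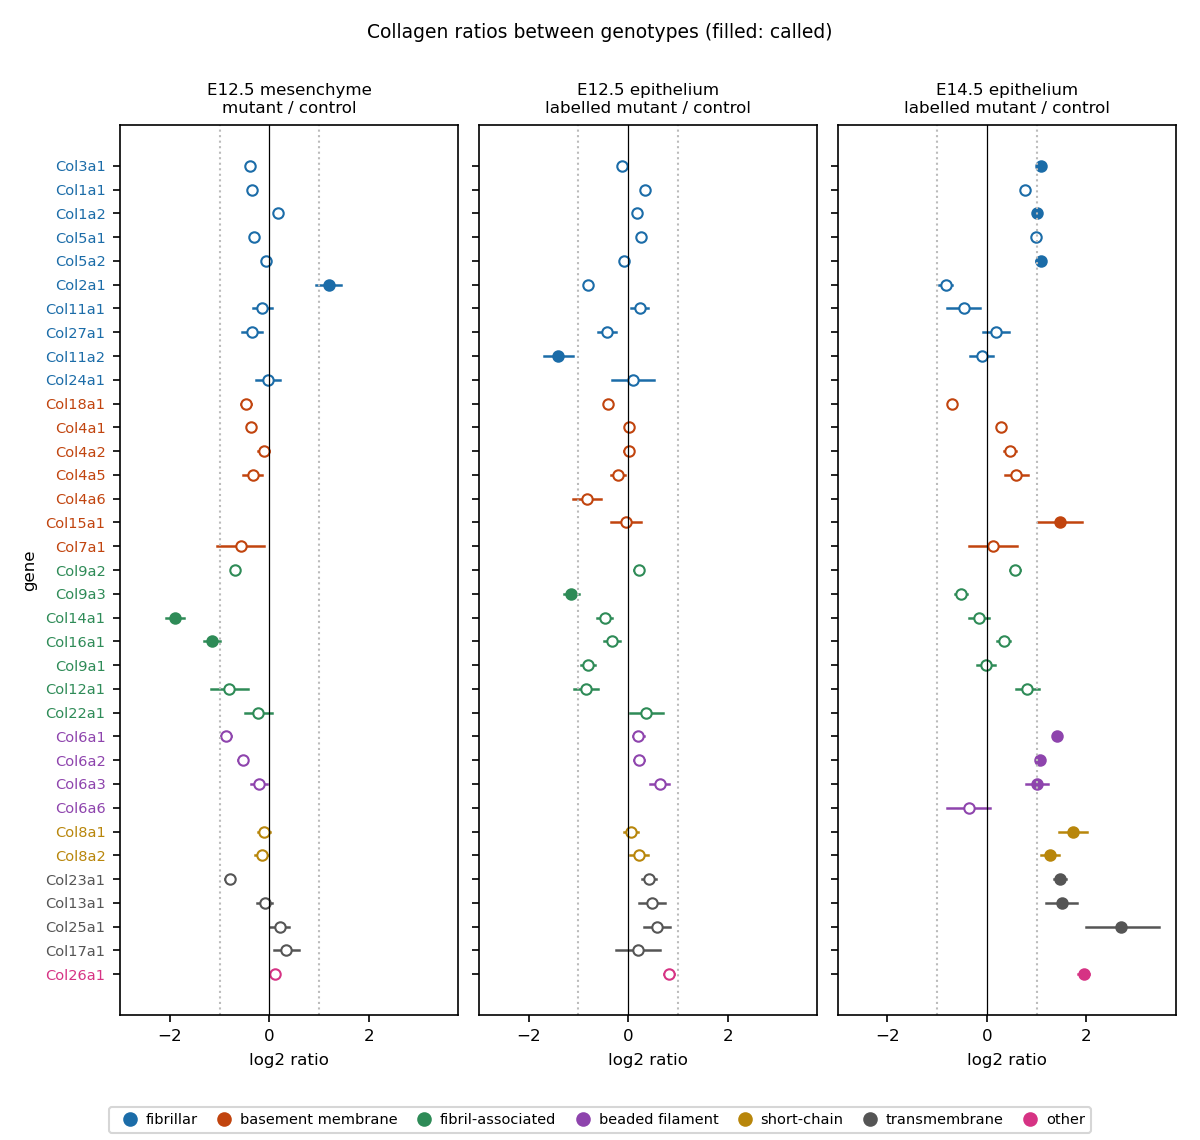
log2 ratio of labelled mutant or mutant to control (x axis) for each collagen measured in a pair (rows, coloured by type), in E12.5 mesenchyme, E12.5 epithelium and E14.5 epithelium; bars are 95% counting intervals, filled points are called and dotted lines mark 2-fold. Points lie mostly below 0 in mesenchyme (median -0.30), around 0 in E12.5 epithelium (0.05) and above 0 in E14.5 epithelium (0.77), where the median relative to the general mesenchymal genes was -0.60.

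The fraction comparisons asked which collagens marked mesenchyme or epithelium at E12.5, once in mutants and once in controls, with no library in common. Between mutant mesenchyme and the epithelium labelled mutant, 6 of 33 measured collagens were called higher in mesenchyme and 8 lower, 18.2% and 24.2%, against 5.42% and 12.9% of all 11956 measured genes. Between the controls, 16 of 34 were higher in mesenchyme and 8 lower, 47.1% and 23.5%, against 7% and 13.6% of 12066. All 6 called higher in the mutant pair (Col1a2, Col5a2, Col13a1, Col17a1, Col24a1 and Col26a1) were among the 16 of the control pair, and the 8 called lower were the same in both: Col2a1, Col4a6, Col9a1, Col9a3, Col11a2, Col12a1, Col15a1 and Col18a1. The median log2 ratio was 0.15 in the mutant pair and 0.79 in the control pair, and relative to the general mesenchymal genes -0.57 and -0.43. On that scale 2 collagens were higher and 13 lower in the mutant pair, where 1.47% of all genes were higher and 28.2% lower. In the control pair 0 were higher and 13 lower, where 0.978% of all genes were higher and 65.6% lower.

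Col26a1 was 2.58-fold higher (2.44 to 2.73) in mesenchyme in the mutant pair and 4.22-fold higher (3.97 to 4.49) in the control pair. Col13a1 was 2.75-fold higher (2.38 to 3.18) and 4.09-fold higher (3.54 to 4.74) in the same pairs. Col24a1 was 3.48-fold higher (2.73 to 4.48) in the mutant pair and 3.77-fold higher (3.02 to 4.74) in the control pair. Col23a1, at 1.75-fold higher (1.60 to 1.91) in the mutant pair and 4.08-fold higher (3.77 to 4.42) in the control pair, was called in the second alone, and the difference between the pairs was not tested. Col1a2, Col3a1 and Col5a2 lay so near 2-fold that their calls turned with the scaling (log2 ratios 0.95 to 1.02 in the control pair).

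Of the 8 collagens lower in mesenchyme, Col15a1 had the widest ratio and Col12a1 the narrowest. Col15a1 was 158-fold lower (28.01 to 6295) in mesenchyme in the mutant pair and 157-fold lower (27.8 to 6213) in the control pair, from 1 read in each mesenchyme library. Col9a3 was 14.3-fold lower (10.3 to 20.6) in the mutant pair and 44.7-fold lower (30.2 to 69.4) in the control pair. Col9a1 was 11.6-fold lower (8.75 to 15.8) in the mutant pair and 19.2-fold lower (14.6 to 25.7) in the control pair. For Col2a1 the ratios were 4.69-fold lower (4.24 to 5.20) in the mutant pair and 18.8-fold lower (16.3 to 21.8) in the control pair, and for Col18a1 4.03-fold lower (3.79 to 4.29) and 3.84-fold lower (3.64 to 4.05) in the same pairs. The ratios of Col4a6, 2.34-fold lower (1.73 to 3.19) and 3.41-fold lower (2.65 to 4.46), and of Col12a1, 2.2-fold lower (1.72 to 2.82) and 2.26-fold lower (1.89 to 2.71), were of the size seen on the mesenchymal side. General epithelial markers were lower in mesenchyme for 22 of 23 in each pair. So were markers that are not epithelial: endothelial for 16 of 18 measured in the mutant pair and 17 of 19 in the control pair. Leukocyte markers were lower for 14 of 15 and 15 of 15. Non-collagen cartilage markers were lower for 4 of 6 in each pair. Among these was Sox9, also a factor of pancreatic progenitors, at 493 and 656 CPM in the labelled mutant and control E12.5 epithelium. Mesothelial markers were lower for 7 of 8 in the mutant pair and 1 of 8 in the control pair. Smooth muscle and pericyte markers were lower for 6 of 13 in the mutant pair and higher for 3 of 11 in the control pair. The part of all these markers in the collagen ratios was not tested. Of the defining endothelial markers, Pecam1 was at 6.37 and 2.48 CPM in mutant and control mesenchyme, while Cdh5 and Tie1 were at 0.193 and 1.22 CPM in mutant and at 0 in control mesenchyme, and Sox10 and Foxd3, of neural crest, were at 0 in both.

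Genes of collagen assembly were counted in both pairs. Of 9 measured processing genes 1 was higher and 1 lower in mesenchyme in the mutant pair (median 0.53), and of 8 in the control pair 5 were higher and 0 lower (median 1.22), with Loxl1 2.86-fold higher (2.64 to 3.09) and Adamts2 2.70-fold higher (2.52 to 2.90). Leprel1, the deposited symbol of the prolyl 3-hydroxylase P3h2, was 3.69-fold higher (2.97 to 4.62) in the mutant pair and 4.98-fold higher (3.98 to 6.27) in the control pair. Mia2, which helps to load large cargo into secretory vesicles, was 133-fold lower (23.4 to 5286) in the mutant pair and at least 76.1-fold lower in the control pair. Among the receptor integrin chains, Itga11 was 5.36-fold higher (3.42 to 8.77) and Itga2 at least 27.6-fold lower in the mutant pair, and Itga1 was 3.43-fold lower (2.24 to 5.45) in the control pair. Pcolce2, an enhancer of procollagen cleavage, was 8.51-fold lower (4.66 to 17.03) in the mutant pair. Counts of folding genes called higher and lower were 1 and 1 of 20 in the mutant pair and 2 and 1 of 20 in the control pair, and those of receptors 3 and 2 of 7 and 1 and 1 of 5. Of all measured genes 5.42% were higher and 12.9% lower in the mutant pair, and 7% and 13.6% in the control pair.

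**Figure D4:**
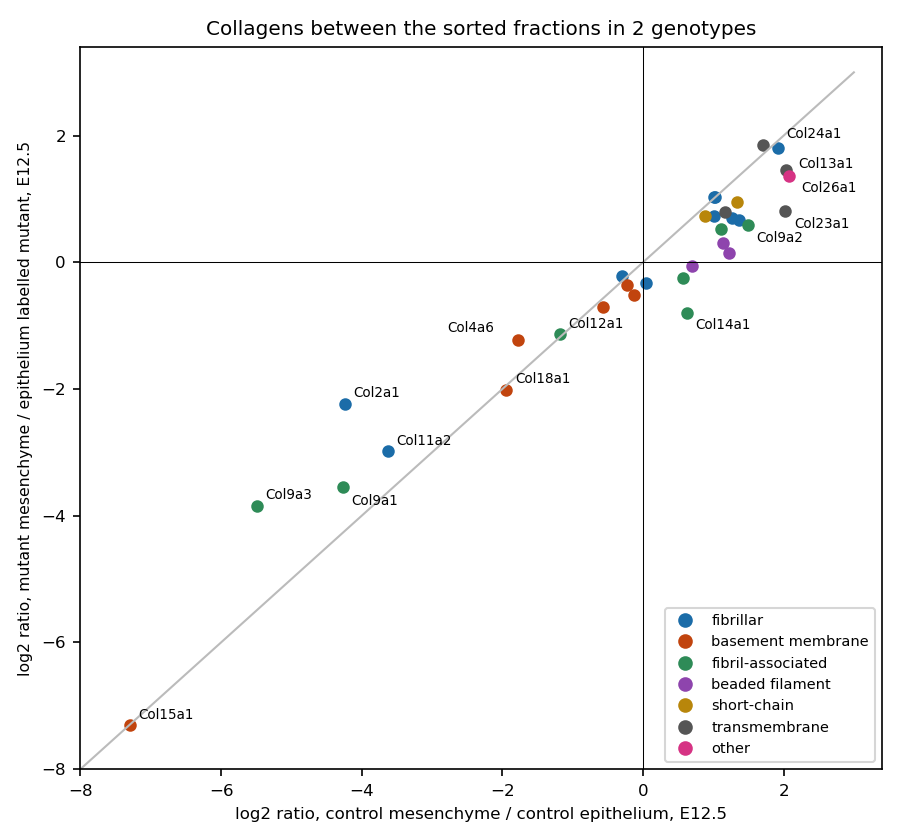
log2 ratio of mesenchyme to epithelium at E12.5 in the mutant pair (y axis) against the control pair (x axis) for collagens measured in both, coloured by type, with equality as the grey line. Col2a1, Col9a1, Col9a3 and Col11a2 lie far to the epithelial side in both pairs but nearer to 0 in the mutant pair, and Col26a1, Col13a1 and Col24a1 lie on the mesenchymal side in both.

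The stage comparisons set E14.5 against E12.5 epithelium. Between the libraries labelled mutant, 9 of 35 measured collagens were called higher at E14.5 and 5 lower, 25.7% and 14.3%, against 6.27% and 5.89% of all 12167 measured genes. Between the controls, 3 of 34 were higher and 10 lower, 8.82% and 29.4%, against 6.53% and 11.2% of 12136. The median was 0.28 in the labelled mutants and -0.29 in the controls, and relative to the general mesenchymal genes, whose medians were 0.37 and -0.75, it was -0.10 and 0.47. The 3 type VI chains called higher in controls, Col6a1, Col6a2 and Col6a6, were also higher in the labelled mutants, and the 5 called lower in the labelled mutants, Col2a1, Col4a6, Col11a1, Col22a1 and Col25a1, were also lower in the controls.

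Col6a1 was 5.64-fold higher (5.30 to 5.995) at E14.5 in the labelled mutants and 2.44-fold higher (2.29 to 2.61) in the controls, and Col6a2 3.82-fold higher (3.61 to 4.04) and 2.11-fold higher (1.99 to 2.24) in the same pairs. Col6a3 was not called in either, at 1.21-fold higher in the labelled mutants and 1.07-fold lower in the controls. Col6a6 was at least 29.9-fold higher in the labelled mutants, with no read at E12.5, and 6.46-fold higher (4.15 to 10.4) in the controls. Of the measured type VI chains, Col6a3 was thus the one without a call at either genotype. The type XI chains also parted. Col11a1 was 3.70-fold lower (3.05 to 4.52) in the labelled mutants and 2.28-fold lower (1.94 to 2.70) in the controls, while Col11a2 was 2.47-fold higher (1.99 to 3.07) in the labelled mutants and within 1.01-fold in the controls. Col2a1 was 2.86-fold lower (2.62 to 3.12) in the labelled mutants and 2.83-fold lower (2.66 to 3.01) in the controls. Col25a1 was 2.02-fold lower (1.62 to 2.52) in the labelled mutants and 8.70-fold lower (5.51 to 14.48) in the controls, and Col24a1, with no read in the E14.5 control, was 1.77-fold lower in the labelled mutants and at least 25.4-fold lower in the controls. Like Col25a1, Col8a1 had the wider ratio between the controls, a difference that was not tested: it was 1.46-fold lower (1.30 to 1.65) in the labelled mutants and 4.65-fold lower (3.89 to 5.59) in the controls.

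General mesenchymal markers were called higher for 6 and lower for 1 of 26 between the labelled mutants, and higher for 5 and lower for 10 of 27 between the controls, and smooth muscle and pericyte markers higher for 6 and lower for 2 of 13 and higher for 0 and lower for 4 of 10. Leukocyte markers were higher for 7 and lower for 0 of 16 between the labelled mutants and higher for 0 and lower for 1 of 15 between the controls, and endothelial markers higher for 1 and lower for 3 of 19 and higher for 0 and lower for 8 of 19 in the same pairs. Skeletal muscle markers were higher for 3 of 4 between the labelled mutants. General epithelial markers were higher for 1 of 23 between the labelled mutants and for 7 of 23 between the controls. Cartilage markers were lower for 1 of 6 between the labelled mutants and for 3 of 6 between the controls. Their part in the collagen ratios was not tested. Among processing genes, lysyl oxidase (Lox) was 6.01-fold higher (5.17 to 7.002) at E14.5 in the labelled mutants and 2.29-fold higher (2.04 to 2.58) in the controls, where 4 of 8 were lower, with Adamts3 at least 42.9-fold lower, Adamts2 3.34-fold lower (2.91 to 3.85) and Loxl1 2.28-fold lower (1.998 to 2.61). Pcolce2 was 8.32-fold lower (4.45 to 17.2) in the labelled mutants. Of folding genes 1 of 20 was called higher in the labelled mutants and 1 of 19 in the controls, the isomerase Ppib (2.46-fold higher (2.31 to 2.61)). Of receptors 3 of 7 were higher and 1 lower in the labelled mutants, with Itga11 5.47-fold higher (3.47 to 8.96), Ddr2 2.74-fold higher (2.45 to 3.07) and Itga2 10.6-fold lower (4.91 to 27.2), and 0 of 5 were called in the controls. Of all measured genes 6.27% were higher and 5.89% lower in the labelled mutants, and 6.53% and 11.2% in the controls.

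Ratios between chains of 1 collagen type, taken within a library and per kb of exon, do not depend on the scaling between libraries. Col4a1 to Col4a2 kept between 1.55 and 1.99 over the 6 libraries, Col1a1 to Col1a2 between 1.31 and 1.90 (2.76 and 3.98 with exon lengths from the full annotation), and Col5a1 to Col5a2 between 0.974 and 1.62. Col9a2 exceeded Col9a1 by 85.5 (65.01 to 115) in mutant and 129.6 (98.9 to 173) in control mesenchyme, against 4.89 (4.46 to 5.36) and 2.41 (2.25 to 2.57) in the labelled mutant and control E12.5 epithelium and 5.45 (4.95 to 6.02) and 3.65 (3.30 to 4.03) in those at E14.5. Both mesenchyme values thus lay above every epithelial one. This was also so for Col9a2 to Col9a3 and Col11a1 to Col11a2. In the other pairs of chains compared, the mesenchyme values did not separate from the epithelial ones. How often such an order would arise by chance was not computed.

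Within epithelium several chain ratios separated the stages. Col8a1 to Col8a2 was 0.470 (0.417 to 0.528) in the labelled mutant and 0.342 (0.279 to 0.417) in the control at E14.5, against 1.29 (1.15 to 1.46) and 1.46 (1.31 to 1.62) at E12.5. Col6a1 to Col6a3 was 32.3 (29.5 to 35.3) in the labelled mutant and 24.4 (21.6 to 27.8) in the control at E14.5, against 6.94 (6.24 to 7.74) and 9.35 (8.39 to 10.4) at E12.5. Col11a1 to Col11a2 was 0.385 (0.310 to 0.475) in the labelled mutant and 0.492 (0.409 to 0.591) in the control at E14.5, against 3.52 (2.89 to 4.31) and 1.13 (1.001 to 1.28) at E12.5 and 22.1 (13.5 to 39.02) and 14.4 (9.70 to 22.3) in mutant and control mesenchyme. With exon lengths from the full annotation Col8a1 to Col8a2 was below 1 in all 6 libraries (0.231 to 0.983), and Col11a1 to Col11a2 also in the E12.5 control epithelium (0.742). In these 3 pairs of chains, picked from a longer set, both E14.5 libraries lay on the same side of both E12.5 epithelial libraries. Col4a1 to Col4a2, Col5a1 to Col5a2 and Col6a1 to Col6a2 also took such an order by their values. Col1a1 to Col1a2, Col4a5 to Col4a6, Col9a2 to Col9a1, Col9a2 to Col9a3 and Col3a1 to Col1a1 did not. For Col4a1 to Col4a2 the intervals of the stages overlapped. It was 1.75 (1.64 to 1.86) in the E14.5 labelled mutant, against 1.72 (1.62 to 1.82) and 1.72 (1.64 to 1.81) in the labelled mutant and control E12.5 epithelium. Such an order has no replicate check, and how often it would arise by chance was not computed. The intervals cover counting error, and an error in exon length would multiply a pair's ratio by the same factor in every library.

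**Figure D5:**
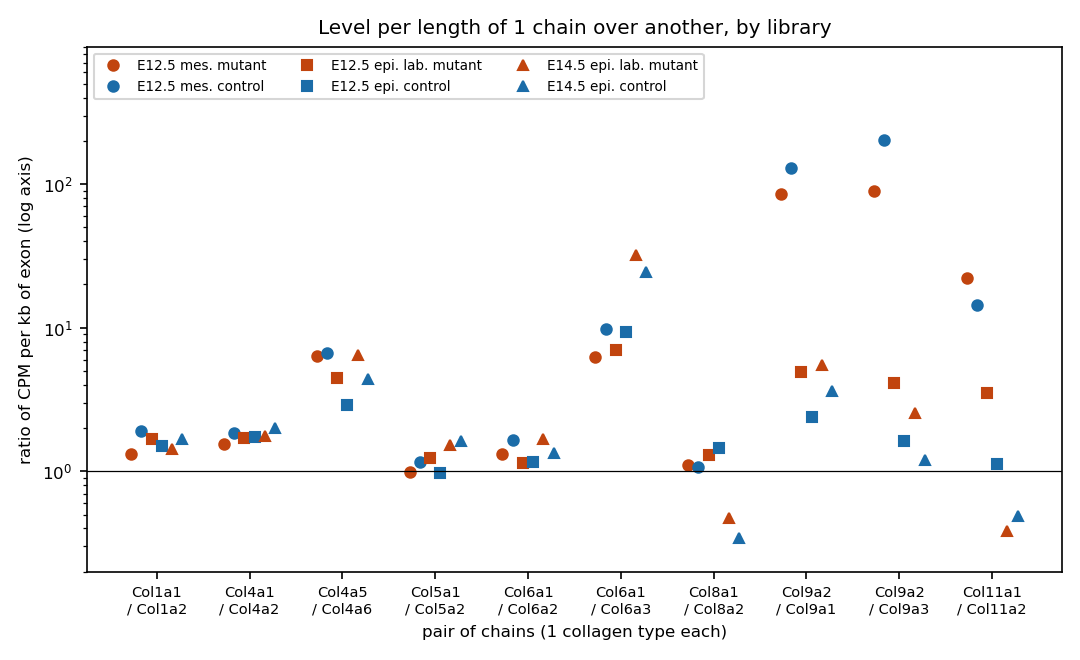
Ratio of the levels per kb of exon of a pair of chains (log y axis) in each library (colours mutant or labelled mutant and control; circles E12.5 mesenchyme, squares E12.5 epithelium, triangles E14.5 epithelium). Col4a1/Col4a2 keeps between 1.55 and 1.99, Col9a2/Col9a1 is 85.5 and 130 in mutant and control mesenchyme, and Col8a1/Col8a2 and Col11a1/Col11a2 are lower in both E14.5 libraries than in any E12.5 library.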

How the data were processed

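Each library has its own table of raw counts by gene symbol, as deposited, and the table names describe these counts as deduplicated. The submitters' processing notes name mm10, Cufflinks 2.2.1 and Cuffdiff 2.2.1, and for the aligner, counter, annotation and strand setting the sources used here give nothing. The 5 summary lines were left out of totals: reads on no gene were 4.69% to 8.84%, ambiguous reads 1.53% to 1.72% and multiply aligned reads 13.7% to 20.1% of all reads. TMM factors (0.941 to 1.05) came from edgeR 4.0.16 in R 4.3.3, and ratios from scipy 1.17.1, pandas 2.3.3 and numpy 2.4.6 under Python 3.11.15 (figures: matplotlib 3.10.9). Each ratio has an exact 95% Clopper-Pearson interval from the conditional binomial distribution. Intervals and floors cover counting error alone, because reads that carry no molecular identifier need not be separate molecules. A library without a read was put at a floor of 3 counts, and the fold written as at least that size. Such a bound leaves out the counting error of the other library, so the bound of an exact interval can be smaller. The calculation was checked on simulated counts. Exon lengths and positions came from GENCODE M21 (basic set), which uses the assembly of mm10, and promoters from RefSeq, GRCm38.p6.

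Members and lists were chosen with earlier results of these data known. All members are accounted for, and values per library are given for those called in at least 1 of 7 comparisons and for the 12 highest per kb. From the lists of collagen folding, processing and receptor genes, up to 5 called genes per comparison with the largest ratios are named. Alternatives were DESeq2 1.42.0 size factors, plain CPM, TMM without collagens, filters at 1 and 20 CPM or none, and ratios relative to the general mesenchymal genes. Not every element of the mutant genotype label is reported here.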

Additional observations from a re-analysis of the deposited data

Results flagged for a closer look

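Some collagens were called in 1 direction in 1 pair of libraries and were at least 1.5-fold in the opposite direction in another pair of the same kind, a limit chosen after the data were seen. These differences were not tested. Col2a1 had a log2 ratio of 1.19 between mutant and control mesenchyme, against -0.81 in E12.5 and -0.83 in E14.5 epithelium. Col6a1 had 1.41 between the labelled mutant and control E14.5 epithelium and -0.87 between mutant and control mesenchyme, and Col23a1 had 1.47 and -0.80 in the same pairs. Relative to the general mesenchymal genes, Col6a1 and Col23a1 at E14.5 were at 0.04 and 0.10. Col12a1 had 1.05 between E14.5 and E12.5 in the labelled mutants and -0.60 in the controls, and relative to the general mesenchymal genes 0.68 and 0.15, with no call and no opposite direction.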

How the results depend on the processing

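Of 21 counts and medians, DESeq2 size factors and TMM without collagens moved none beyond 1.5 times (counts) or the median of the members' interval bounds (medians). Plain CPM gave medians of 0.85 for the E14.5 genotype pair and -0.46 for the control stage pair, where the median of all genes was -0.19 against -0.03 with TMM and the higher share of all called genes 24.3% against 36.9%. With a filter at 1 CPM, 4 collagens were lower in the E12.5 epithelium pair and 2 in the E14.5 genotype pair, 5 were higher in the control stage pair, and the control fraction median was 0.66. With no filter, 4 were lower in mesenchyme, 7 and 2 lower in the E12.5 and E14.5 epithelium pairs, 13 lower in the control fraction pair (median 0.62) and 5 higher in the control stage pair. With a filter at 20 CPM, 4 were lower in the mutant fraction pair, and 2 and 5 lower in the labelled mutant and control stage pairs.

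Relative to the general mesenchymal genes, 1 was lower in mesenchyme and 6 lower in E12.5 epithelium (median -0.25). On that scale 1 was higher and 12 lower at E14.5 (median -0.60), 2 higher and 13 lower in the mutant fraction pair (-0.57), and 0 higher and 13 lower in the control fraction pair (-0.43). In the labelled mutant stage pair 5 were higher (-0.10), and in the control stage pair 7 higher and 5 lower (0.47). All genes called higher and lower on that scale were 3.85% and 13.4% in the labelled mutant and 33.9% and 3.34% in the control stage pair. Calls changed sign at E14.5 for Col1a2 (-0.35), Col3a1 (-0.28), Col5a2 (-0.28), Col6a2 (-0.29), Col6a3 (-0.36) and Col8a2 (-0.10). In the control fraction pair they did so for Col1a2 (-0.20), Col3a1 (-0.21), Col5a2 (-0.22), Col6a1 (-0.0053), Col6a3 (-0.082), Col22a1 (-0.11) and Col25a1 (-0.060). Of all called genes, the share that was higher became 52.5% in mesenchyme (35.8% with TMM), 11.98% in E12.5 and 1.58% in E14.5 epithelium (35.8% and 60.1%), 4.96% and 1.47% in the mutant and control fraction pairs (29.6% and 34.0%), and 22.3% and 91.0% in the labelled mutant and control stage pairs (51.6% and 36.9%). These shifts equal the median of the general mesenchymal genes by construction. Exon lengths from the full annotation, an alternative chosen after seeing the data, moved 3 of 11 chain ratios beyond 1.5 times, Col1a1 to Col1a2 among them. DESeq2 size factors took 4 calls below 2-fold and plain CPM 5, each with a log2 ratio above 0.92, and plain CPM added Col5a1 at E14.5 (1.06) and Col9a1 in the control stage pair (-1.01). No replicate could be left out, and no paired analysis was possible because each group has 1 library. Counts of members near 5 CPM are limited by depth.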
